A study of Mus musculus with 12 samples.

Results

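Genes of the inflammasome and of pyroptosis, 10 in all, were followed in macrophages from the mouse peritoneal cavity, before and after exposure to bacterial lipopolysaccharide (LPS), a component of the cell wall of Gram-negative bacteria. They were taken by name from the deposited table of 48709 genes, and all 10 were found there: Nlrp3, Nlrc4, Naip2, Naip5, Pycard, Nek7, P2rx7, Casp1, Casp4 and Gsdmd. Cells came from wild-type mice (WT) or from mice with a knockout of Usp5 in myeloid cells (MKO), and were taken at 0 h or after 3 h of LPS, with 3 libraries in each of the 4 groups. Usp5 encodes a deubiquitinase that disassembles free ubiquitin chains. The treatment label reads LPS for the 0 h samples too, whereas the design text calls them mock. The sources used here give no strain, sex or age of the mice, no Cre driver for the knockout and no word on separate animals behind the replicates. The spread that a p-value is judged against is therefore that of these libraries and may be technical.

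An inflammasome is a complex that forms in the cytosol when a sensor protein meets a sign of infection or damage. Sensors such as NLRP3, or NLRC4 with its NAIP receptors, recruit caspase-1, often through the adaptor ASC (gene Pycard), and caspase-1 matures interleukin-1 beta and interleukin-18. Caspase-1 and the caspase that binds LPS in the cytosol (caspase-11 in mice, gene Casp4) also cut gasdermin D, whose freed fragment opens pores in the membrane and leads to a lytic death named pyroptosis. In macrophages, LPS outside the cell is known to prime this system through Toll-like receptor 4, chiefly by raising the transcripts of NLRP3 and of pro-interleukin-1 beta.

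The promoter sequences of the genes that changed most, and of a neighbour called in none of the 5 comparisons with TMM scaling, are shown so that the data can be read beside the DNA. RefSeq windows on the GRCm38.p6 build, from 250 bases before to 50 after a transcript start, were found for 9 of the 10 genes (12 windows). Capitals mark matches, on either strand, to an NF-kB type pattern of GGG, 2 bases of any kind and TTTCC. The stricter NF-kB pattern, with AC as those 2 bases, lies inside it, and an interferon response type pattern of GAAA, 2 bases of any kind and GAAA was searched the same way. The Nlrp3 window at chr11:59541319-59541618 (plus strand) covers the start of the gene in the table, the Casp1 window is chr9:5298267-5298566 (plus strand) and the Casp4 window is chr9:5308599-5308898 (plus strand).
Nlrp3: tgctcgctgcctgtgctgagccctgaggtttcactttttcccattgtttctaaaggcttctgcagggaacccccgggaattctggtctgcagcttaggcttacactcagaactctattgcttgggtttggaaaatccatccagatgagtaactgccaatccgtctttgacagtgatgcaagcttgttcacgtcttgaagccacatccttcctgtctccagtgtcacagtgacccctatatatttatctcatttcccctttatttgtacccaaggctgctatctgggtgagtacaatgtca
Casp1: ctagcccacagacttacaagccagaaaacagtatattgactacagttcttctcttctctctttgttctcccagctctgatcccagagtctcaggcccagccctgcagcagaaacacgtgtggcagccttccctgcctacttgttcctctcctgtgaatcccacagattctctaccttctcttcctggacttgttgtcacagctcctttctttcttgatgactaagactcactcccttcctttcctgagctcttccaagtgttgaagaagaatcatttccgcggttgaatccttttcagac
Casp4: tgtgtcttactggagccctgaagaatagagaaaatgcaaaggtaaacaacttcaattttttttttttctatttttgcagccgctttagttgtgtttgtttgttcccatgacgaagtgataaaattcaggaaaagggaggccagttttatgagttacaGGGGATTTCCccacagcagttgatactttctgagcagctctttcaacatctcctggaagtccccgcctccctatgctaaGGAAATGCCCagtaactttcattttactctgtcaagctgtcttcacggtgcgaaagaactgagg
Among the windows of the 9 genes, matches were found in those of Casp4, at positions -93 (GGGGATTTCC) and -14 (GGAAATGCCC, the pattern read on the other strand) from the transcript start in the window shown. The NF-kB type pattern occurs in 1.63% of the 32851 RefSeq windows, the stricter one in 0.155% and the interferon response type in 3.44%. A match describes letters only, and the lack of one in a short window says nothing of a factor.

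Naip2 and Naip5 belong to a family of close copies on chromosome 13, which bears on how far their counts can be trusted. Their promoter windows, chr13:100202073-100202372 for Naip2 and chr13:100247287-100247586 for Naip5 (both on the minus strand), show the likeness. The Naip2 window covers the start of the gene in the table. The Naip5 window lies upstream of the gene in the table, which starts at 100246323 on that strand. Likeness of the windows does not measure shared reads. Capitals here mark exact runs of at least 12 bases that both windows hold.
Naip2: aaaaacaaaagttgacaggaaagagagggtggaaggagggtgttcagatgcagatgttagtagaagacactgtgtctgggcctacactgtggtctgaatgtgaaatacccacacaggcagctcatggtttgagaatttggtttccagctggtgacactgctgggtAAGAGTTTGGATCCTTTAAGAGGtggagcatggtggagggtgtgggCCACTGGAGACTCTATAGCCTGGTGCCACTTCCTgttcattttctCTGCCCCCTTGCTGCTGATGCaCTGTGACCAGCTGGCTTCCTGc
Naip5: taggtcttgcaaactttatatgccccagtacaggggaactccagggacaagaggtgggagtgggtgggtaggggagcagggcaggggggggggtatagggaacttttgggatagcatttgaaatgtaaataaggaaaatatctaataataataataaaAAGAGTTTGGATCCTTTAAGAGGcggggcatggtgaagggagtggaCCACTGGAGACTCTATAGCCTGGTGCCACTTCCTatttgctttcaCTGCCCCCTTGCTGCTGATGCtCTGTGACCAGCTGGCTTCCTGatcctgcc
Such runs make up 99 of the 300 bases, and the longest is 34 bases. In GENCODE M21 transcripts, 19.1% of the distinct 50-base stretches of Naip2 and 36.8% of those of Naip5 also occur in transcripts of other genes, chiefly Naip1, Naip3 and Naip6. Reads of these genes may therefore be shared, and both levels are uncertain. For Nlrp3, Pycard, Casp1, Casp4 and Gsdmd the share was 0%, and for Nlrc4, Nek7 and P2rx7 it was 1.09%, 0.665% and 1.17%. The genes that overlap Pycard, Nek7 or P2rx7 in the table had no count. All 10 genes are annotated as protein-coding. In mm10 Nlrp3 lies on chromosome 11 from 59541568 to 59566956 (plus strand), Gsdmd on chromosome 15 from 75862339 to 75867404 (plus strand), Pycard on chromosome 7 from 127989708 to 127993867 (minus strand) and P2rx7 on chromosome 5 from 122643911 to 122691432 (plus strand).

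Levels are CPM, counts scaled to library size and TMM factor, and are given as mean ± SD with n = 3. Changes are log2 fold changes with standard error (SE) from edgeR's quasi-likelihood test over 12455 genes, called at an adjusted p under 0.05. Total counts ran from 14762709 to 20778862 per library. The targeted gene Usp5 stood between 100.5 and 121 CPM in the 6 WT libraries and between 26.9 and 31.4 CPM in the 6 MKO libraries, and the genotype difference was -1.90 (SE 0.074, adjusted p = 5.25e-10) before LPS and -1.97 (SE 0.075, adjusted p = 1.91e-10) after it. The 7 macrophage markers summed to between 5838 and 9784 CPM per library, from 8112 to 8698 in WT 0 h, 9476 to 9784 in WT 3 h, 5838 to 6257 in MKO 0 h and 6488 to 6733 in MKO 3 h. At 0 h Adgre1 averaged 3073 CPM in WT and 1828 in MKO, Fcgr1 1652 and 853, and Cd68 1797 and 1365. Csf1r stood at 1497 and 1414, Mertk at 143 and 123, Lyz2 at 21.4 and 13.0, and Cd14 at 302 and 382.5. After 3 h of LPS Cd14 averaged 1381 CPM in WT and 788 in MKO. Of 6 markers of large peritoneal macrophages, 4 (Cxcl13, Gata6, Timd4 and Vsig4) were under 0.1 CPM in every library, whereas Icam2 averaged 14.3 to 15.7 CPM and Selp 2.45 to 5.17 CPM by group, and the 6 summed to between 14.5 and 23.7 CPM per library. The 10 neutrophil markers summed to between 168 and 291 CPM with overlap between all groups, those of eosinophils to between 39.8 and 82.4 CPM (before and after LPS, Siglecf averaged 1.69 and 2.25 CPM in WT libraries against 10.8 and 12.3 in MKO libraries, and Ccr3 43.7 and 72.7 against 22.5 and 26.9), and those of B cells to at most 14.1 CPM. Among the neutrophil markers at 0 h, Mpo averaged 15.3 CPM in WT and 28.5 in MKO, and Elane 2.97 and 6.615. Camp, Ly6g and Retnlg averaged less in MKO than in WT at 0 h. For T and NK cells, dendritic cells, mast cells and mesothelial cells the sums were at most 2.29, 9.97, 4.44 and 0.644 CPM. The part of these markers in the genotype differences was not tested. In the 0 h groups the third library of each genotype differed from its mates: chi-square per degree of freedom against it was 15.6 to 27.9, and 1.93 to 4.32 in all other pairs of replicates. The slope of expression on transcript length was 0.0226 (WT) and -0.105 (MKO) in these libraries, hereafter the deviating 0 h libraries, against -0.0866 to -0.0714 in the other WT 0 h and 0.0502 to 0.0788 in the other MKO 0 h libraries. At 3 h that slope ran from -0.0299 to -0.0143 in WT and from 0.0452 to 0.0896 in MKO, and its part in the genotype differences given here was not tested. Malat1 was at 164 CPM in the deviating WT and 26.3 CPM in the deviating MKO library. The other 0 h libraries held 31.75 and 29.95 CPM in WT and 201 and 121.5 CPM in MKO. Without the deviating libraries, slope and Malat1 therefore differ with genotype at 0 h. In that fit a genotype effect cannot be told apart from such a difference.

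**Figure D1:**
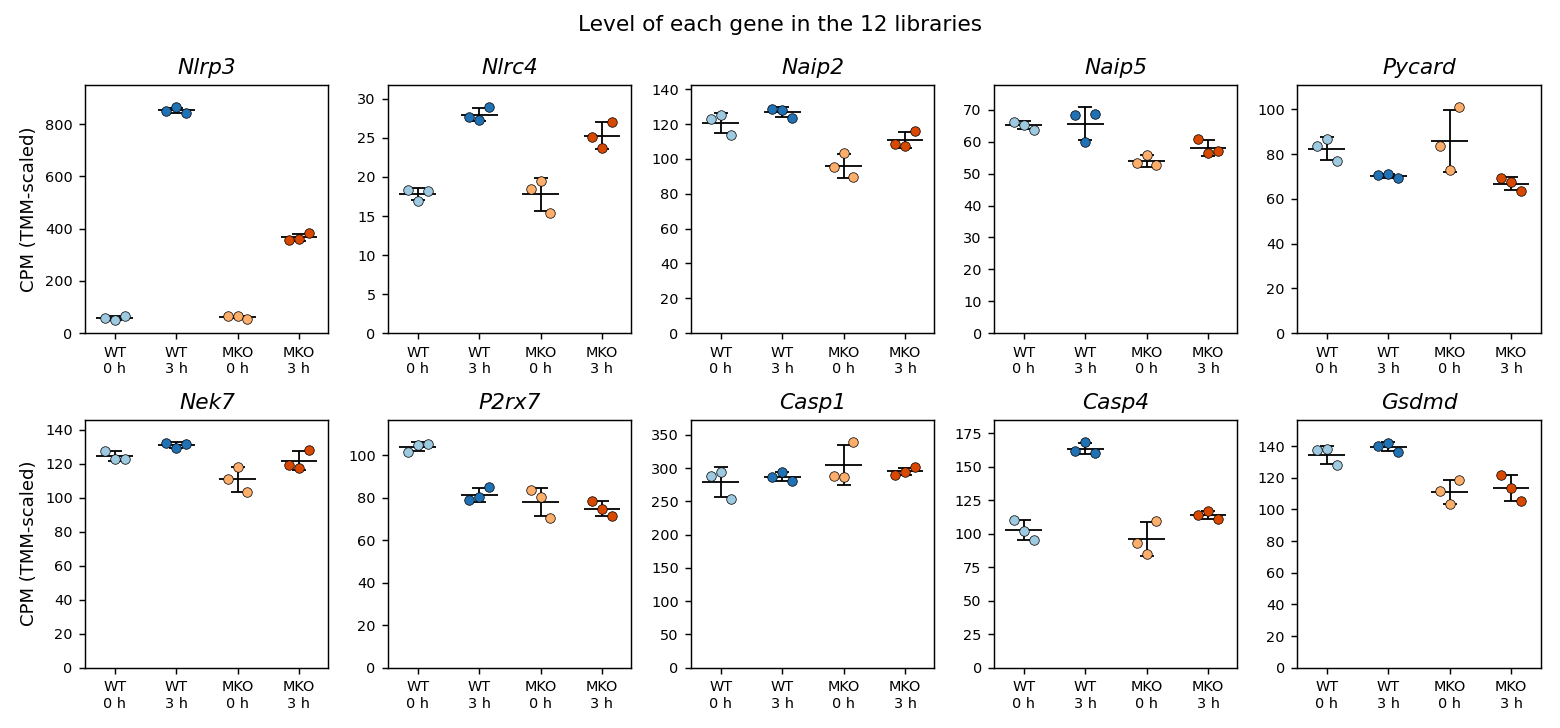
CPM (TMM-scaled, linear axes from 0) of the 10 genes in the 12 libraries. Points are libraries, lines are group means and bars are SD with n = 3. Nlrp3 stands between 51.0 and 64.8 CPM in all 0 h libraries and separates at 3 h, at 843 to 864 CPM in WT and 358 to 382 CPM in MKO.

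Nlrp3, the sensor that responds to ion fluxes and membrane damage, gave the largest change of the 10 genes with LPS. In WT 0 h libraries it was at 56.2, 51.0 and 64.8 CPM, and in WT 3 h libraries at 849.8, 864 and 843 CPM. In MKO 0 h libraries it was at 63.3, 63.3 and 55.6 CPM, and in MKO 3 h libraries at 358, 359 and 382 CPM. The 0 h groups overlapped, and at 3 h every MKO library lay below every WT library. The rise was 3.89 (SE 0.085, adjusted p = 3.45e-14), or 14.9-fold, in WT and 2.59 (SE 0.080, adjusted p = 4.83e-12), or 6.03-fold, in MKO. At 3 h the MKO level was lower by -1.22 (SE 0.075, adjusted p = 2.26e-08), which is 2.33-fold. The interaction, the LPS change in MKO minus that in WT, was -1.30 (SE 0.11, adjusted p = 2.83e-06) and ranked 43 of 12455 genes by p. In these bulk libraries, fewer cells that carry a transcript and less of it per cell cannot be told apart.

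At 0 h the genotype difference of Nlrp3 was 0.08 (SE 0.079, adjusted p = 0.467), with a 95% interval from -0.09 to 0.25. Leaving out both deviating 0 h libraries gave 0.24, which was called (adjusted p = 0.000795), in a fit where slope and Malat1 differ with genotype at 0 h. Leaving out these libraries, or any single library, did not end the calls of Nlrp3 for LPS, for the genotype at 3 h or for the interaction.

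A ratio within a library does not depend on library scaling, but it can depend on the slope on transcript length. Nlrp3 stands at percentile 52.5 of length and Casp1 at 9.86. The part of that slope in the ratios was not tested. On the authors' TPM scale, which divides by transcript length, the ratio of Nlrp3 to Casp1 was 0.0720, 0.0639 and 0.0944 in WT 0 h and 1.09, 1.08 and 1.11 in WT 3 h. In MKO it was 0.0810, 0.0817 and 0.0605 at 0 h and 0.456, 0.451 and 0.468 at 3 h. Transcripts of the sensor thus stood slightly above those of the caspase in every WT library after LPS and below them in every MKO library. Against Pycard, the adaptor, the ratio went from 0.657 ± 0.122 to 11.3 ± 0.0634 in WT and from 0.679 ± 0.150 to 5.15 ± 0.418 in MKO. Against Nek7, whose kinase protein binds NLRP3 and licenses its assembly, it went from 0.838 ± 0.106 to 11.8 ± 0.278 in WT and from 0.997 ± 0.0356 to 5.47 ± 0.0739 in MKO.

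Nlrp3 was the only one of the 10 genes whose group means spanned more than 1 on the log2 scale (3.90). Among 9161 genes averaging 5 CPM or more, the 3 whose profile over the 4 group means came closest to it were Noct, Zfp36 and Traf1, with root mean square differences of 0.064, 0.091 and 0.11 (log2, centred). Noct encodes a phosphatase of NADPH with rhythmic expression, Zfp36 the RNA-destabilising protein tristetraprolin and Traf1 an adaptor of tumour necrosis factor receptors. Noct was at 17.7 ± 1.65 CPM in WT 0 h and 281 ± 15.5 in WT 3 h, and at 21.1 ± 1.49 in MKO 0 h and 116 ± 6.08 in MKO 3 h.

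Nlrc4 encodes the sensor partner of the NAIP proteins and was the least abundant of the 10 on the TPM scale in every group. The level in WT was 18.4, 16.9 and 18.3 CPM before LPS and 27.7, 27.3 and 28.9 CPM after 3 h. MKO libraries held 18.4, 19.4 and 15.4 CPM at 0 h and 25.1, 23.7 and 27.1 CPM at 3 h. It rose with LPS in both genotypes, and the 0 h and 3 h groups did not overlap in either. The rise was 0.65 (SE 0.091, adjusted p = 5.94e-05) in WT and 0.51 (SE 0.091, adjusted p = 0.00106) in MKO, and the interaction of -0.14 had a 95% interval from -0.41 to 0.14.

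Naip2 and Naip5 encode receptors that bind bacterial proteins in the cytosol, the type III secretion rod in the case of NAIP2 and flagellin in that of NAIP5. Naip2 ran from 114 to 125 CPM in WT 0 h and from 89.5 to 103 CPM in MKO 0 h, and Naip5 from 63.8 to 66.3 and from 52.7 to 56.0 CPM. Both were lower in MKO at 0 h, by -0.33 (SE 0.065, adjusted p = 0.00142) for Naip2 and -0.27 (SE 0.067, adjusted p = 0.00619) for Naip5. At 3 h the differences were -0.19 (adjusted p = 0.0258) and -0.18 (adjusted p = 0.0426) in edgeR's test, and with scaling by library size alone they were 0.06 and 0.07 and not called. Naip2 rose with LPS in MKO (0.20, adjusted p = 0.0464). Among fits with 1 library left out, this call was kept only without replicate 3 of WT 0 h or replicate 2 of MKO 0 h (adjusted p otherwise up to 0.179). It was also kept without both deviating 0 h libraries (0.15, adjusted p = 0.0287). It was lost with scaling by library size alone (0.11, adjusted p = 0.226), among other settings. The 3 h call of Naip2 was lost without replicate 1 or 2 of either 3 h group, and that of Naip5 without any of 8 libraries (adjusted p up to 0.204). With scaling by library size alone the 0 h difference of Naip5 was -0.15 (adjusted p = 0.0903), and both genes carry the uncertainty of shared reads.

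Pycard encodes ASC, the adaptor that links sensors to caspase-1. The level in WT was 83.8, 86.7 and 76.9 CPM before LPS and 70.6, 71.2 and 69.3 CPM after 3 h. The MKO libraries gave 83.7, 73.1 and 100.9 CPM at 0 h and 69.3, 67.5 and 63.6 CPM at 3 h. Every 3 h library lay below every 0 h library of its genotype. The fall was called in MKO (-0.36, SE 0.095, adjusted p = 0.0178) and not in WT (-0.23, SE 0.096, adjusted p = 0.0838), and the interaction was -0.13 (95% interval from -0.42 to 0.16). Without replicate 3 of MKO 3 h the change in MKO was -0.33 (adjusted p = 0.0832), and it was also not called with only the groups compared (adjusted p = 0.0602) or with replicates 1 and 2 summed (adjusted p = 0.0794). Without the deviating 0 h libraries the change in WT was called at -0.28 (adjusted p = 0.000366), as it was with only the groups compared (adjusted p = 0.0147) and with no filter on low counts (adjusted p = 0.0408). Its changes when scaled by library size alone were -0.45 in WT (adjusted p = 0.001) and -0.45 in MKO (adjusted p = 0.00299), both called.

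P2rx7 encodes the ATP-gated channel whose opening lets potassium out of the cell, a trigger of NLRP3. The level in WT was 101, 105 and 105 CPM before LPS and 78.7, 80.05 and 85.1 CPM after 3 h. In MKO it was at 83.4, 80.1 and 70.6 CPM at 0 h and 78.5, 74.8 and 71.1 CPM at 3 h. The WT 0 h libraries stood above all others, MKO 0 h overlapped both 3 h groups, and at 3 h the lowest WT library lay just above the highest MKO library (78.7 and 78.5 CPM). P2rx7 fell by 0.35 (SE 0.070, adjusted p = 0.00111) with LPS in WT and was lower in MKO at 0 h by -0.41 (SE 0.070, adjusted p = 0.000398). The difference at 3 h was -0.12 (adjusted p = 0.183), and 0.13 with scaling by library size alone. In MKO the LPS change was -0.06 (adjusted p = 0.600), and the interaction was 0.29 (SE 0.099, adjusted p = 0.103). The interaction was called without the deviating 0 h libraries (0.22, adjusted p = 0.0427) and with scaling by library size alone (0.43, adjusted p = 0.0232).

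The range of Nek7 was 122.7 to 128 CPM in WT 0 h, 129 to 132 in WT 3 h, 103 to 118 in MKO 0 h and 118 to 128 in MKO 3 h. Its difference at 0 h of -0.17 (SE 0.061, adjusted p = 0.0478) was the only one of its 5 comparisons to be called, and it was lost when any library other than replicate 2 of MKO 0 h was left out (adjusted p up to 0.171).

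Casp1, the gene of caspase-1, was called in none of the 5 comparisons. It ran from 253 to 295 CPM in WT 0 h, 280.0 to 295 in WT 3 h, 286 to 339 in MKO 0 h and 289.8 to 301 in MKO 3 h. The 0 h extremes, 253 and 339 CPM, were the deviating libraries. The 95% interval of its LPS change in WT ran from -0.11 to 0.20 and that of the difference at 3 h from -0.11 to 0.19. Scaled by library size alone, its LPS change in WT was -0.18 (adjusted p = 0.0278) and the genotype differences were 0.24 at 0 h and 0.29 at 3 h, all called. Casp1 and Casp4 are neighbours on the plus strand of chromosome 9 in mm10, Casp1 from 5298517 to 5307265 and Casp4 from 5308828 to 5336783, with 1562 bases between them.

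Casp4 rose in WT cells with LPS. The level in WT was 110.2, 102 and 95.2 CPM before LPS and 162, 168 and 161 CPM after 3 h. MKO libraries had 93.5, 85.1 and 109.6 CPM at 0 h and 114, 117 and 111 CPM at 3 h. At 0 h the genotypes overlapped, and at 3 h every MKO library lay below every WT library. The change with LPS was 0.67 (SE 0.083, adjusted p = 1.59e-05) in WT and 0.25 (SE 0.083, adjusted p = 0.0593) in MKO, and the difference at 3 h was -0.52 (SE 0.082, adjusted p = 0.000167). Its interaction was -0.43 (SE 0.12, adjusted p = 0.0413), and of the 12 fits with 1 library left out it was called in 3, those without replicate 1 of WT 0 h, replicate 2 of MKO 0 h or replicate 3 of MKO 0 h (adjusted p otherwise 0.0581 to 0.104). Scaled by library size alone it was -0.29 (adjusted p = 0.111). The change in MKO was called by DESeq2 (adjusted p = 0.0283) and without the deviating 0 h libraries (0.35, adjusted p = 1.62e-05). Leaving those libraries out also gave a call at 0 h (-0.25, adjusted p = 0.000813, against -0.09 and adjusted p = 0.420 with all libraries) and an interaction of -0.27 (adjusted p = 0.0089). In that fit slope and Malat1 differ with genotype at 0 h. The ratio of Casp4 to Casp1 in TPM was 0.149 ± 0.00741 in WT 0 h, 0.230 ± 0.00164 in WT 3 h, 0.127 ± 0.00613 in MKO 0 h and 0.156 ± 0.00640 in MKO 3 h.

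Gsdmd, the gene of the pore-forming protein, did not pass the test for LPS in either genotype. The level in WT was 137, 138 and 128 CPM before LPS and 140.1, 142 and 136 CPM after 3 h. MKO libraries held 112, 103 and 119 CPM at 0 h and 122, 113 and 105 CPM at 3 h. All 6 MKO libraries lay below all 6 WT libraries. Before LPS the genotypes differed by -0.27 (SE 0.068, adjusted p = 0.00718), and after 3 h by -0.30 (SE 0.068, adjusted p = 0.00303). Under scaling by library size alone these were -0.16 (adjusted p = 0.0804) and -0.05 (adjusted p = 0.568), and the LPS change in WT was called at -0.17 (adjusted p = 0.0436). With replicates 1 and 2 summed the 0 h difference was -0.24 (adjusted p = 0.135) and not called.

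**Figure D2:**
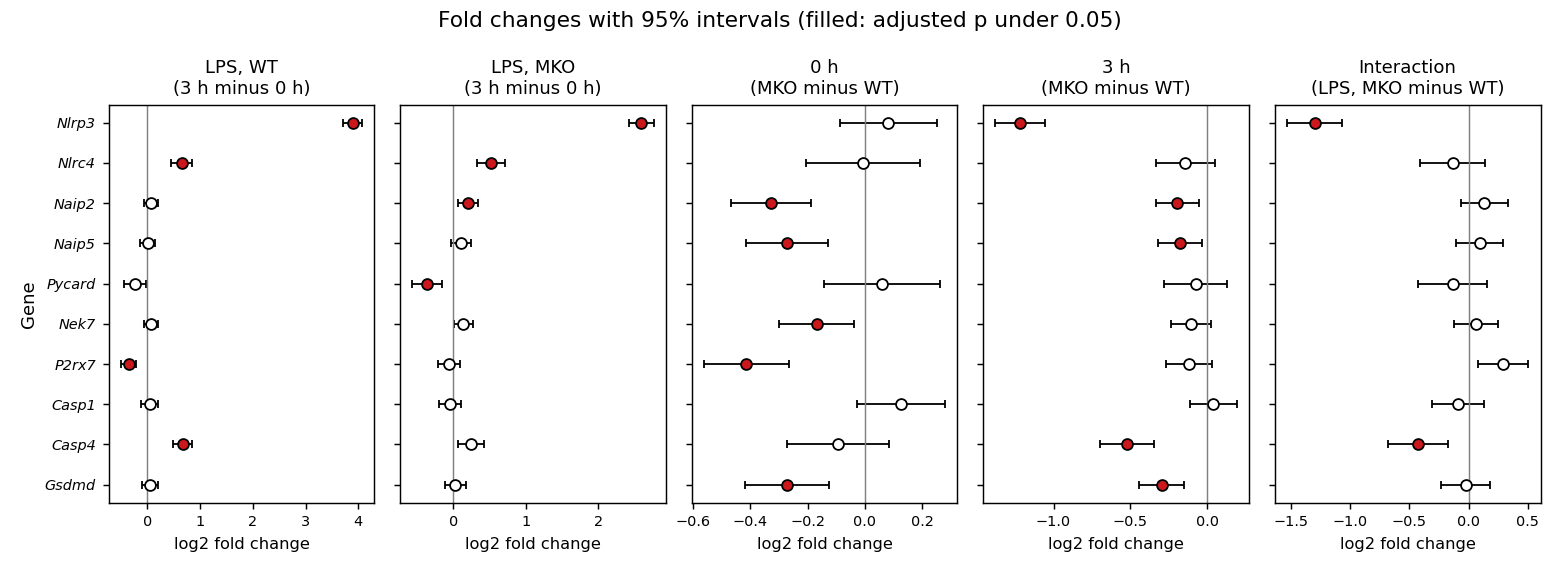
Log2 fold change of each gene in the 5 comparisons, with 95% intervals from edgeR's fit and an x axis of its own per panel. Filled points have an adjusted p under 0.05. Nlrp3 is far from 0 in both LPS panels, at 3.89 and 2.59, and all called genotype differences lie below 0.

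Over the 10 genes, 4 were called for LPS in WT, with Nlrp3, Nlrc4 and Casp4 higher and P2rx7 lower, where 32.5% of all genes tested were called (17.8% higher and 14.6% lower). Their median change was 0.06, against -0.0035 over all genes. The 0 h and 3 h libraries did not overlap for 6 of the 10, 4 higher and 2 lower, as for 45.6% of all genes (24.1% higher and 21.5% lower). For LPS in MKO 4 were called, with Nlrp3, Nlrc4 and Naip2 higher and Pycard lower, against 15.8% of all genes (9.75% higher and 6.08% lower), and the median was 0.12 (all genes -0.01). Libraries did not overlap for 6, 5 higher and 1 lower, against 34.3% (19.3% and 15.0%).

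The genotype differences that were called all pointed to lower levels in MKO. At 0 h they were Naip2, Naip5, Nek7, P2rx7 and Gsdmd, 5 of 10 lower and 0 higher in edgeR's test, where 32.9% of all genes were called (16.5% higher and 16.4% lower). Libraries did not overlap for the same 5 genes, against 39.4% of all genes (19.6% higher and 19.8% lower). At 3 h they were Nlrp3, Naip2, Naip5, Casp4 and Gsdmd, 5 of 10 lower and 0 higher, where 42.8% were called (19.8% higher and 23.0% lower). There 7 of the 10 did not overlap, all lower, against 61.2% (28.7% higher and 32.5% lower). At both times 0 of the 10 were higher at an unadjusted p under 0.05 and 0 by DESeq2, which called 4 lower at each time. Median genotype differences were -0.13 at 0 h and -0.16 at 3 h, against -0.0011 and -0.01 over all genes. The interaction was called for 2 of 10, Nlrp3 and Casp4, both negative, against 6.80% of all genes (2.39% positive and 4.41% negative).

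The number of calls changed with the scaling. With scaling by library size alone, the median of all genes is -0.23 for LPS in WT and 0.24 for the genotype at 3 h, so changes given here are relative to that shift. In that fit 3 of the 10 were higher and 5 lower for LPS in WT, where 9.70% of all genes were higher and 41.8% lower. At each time 1 of the 10 was higher and 2 lower in MKO, where 25.8% of all genes were higher and 9.59% lower at 0 h, and 43.5% and 9.63% at 3 h. Without the deviating 0 h libraries 5 of the 10 were called for LPS in WT and 5 for LPS in MKO, against 46.5% and 20.8% of all 12566 genes tested in that fit. There 6 of the 10 were called for each genotype difference, against 48.0% at 0 h and 56.0% at 3 h, and 3 for the interaction, against 20.2%.

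**Figure D3:**
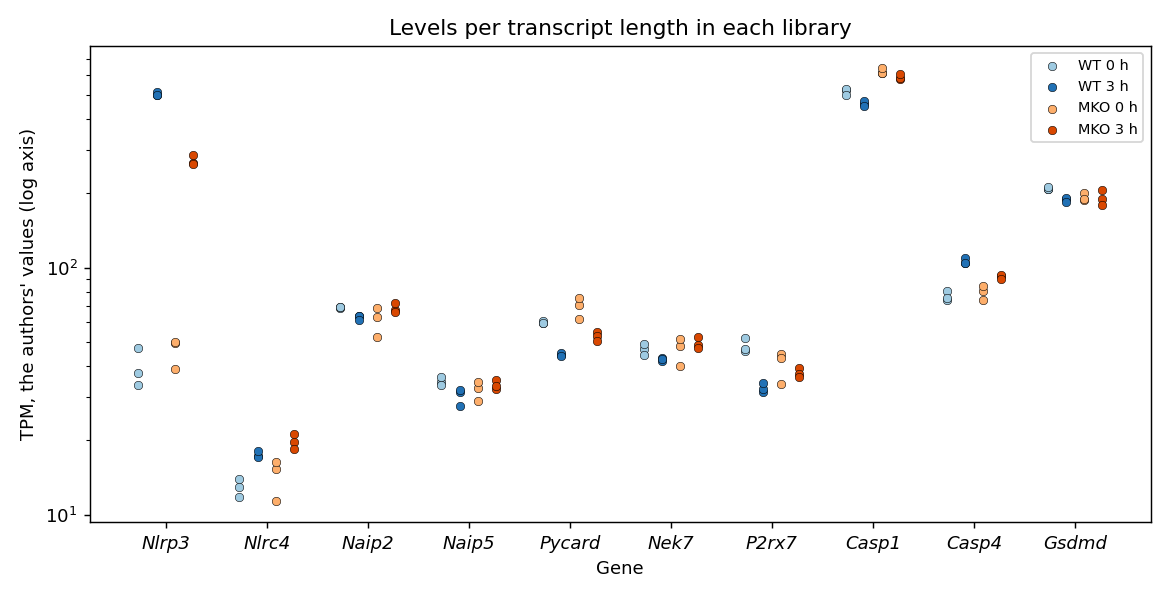
The authors' TPM of each gene in every library on a log axis, coloured by group. Nlrp3 moves from 33.7 to 47.1 TPM in WT 0 h to between 500.1 and 511 TPM in WT 3 h, while Casp1 stays between 450.1 and 644 TPM in all libraries.

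Per transcript length, Casp1 led in 3 of the 4 groups, at 515 ± 14.5 TPM in WT 0 h, 625 ± 17.0 in MKO 0 h and 591 ± 14.1 in MKO 3 h. Gsdmd came second at 0 h, at 209.6 ± 2.21 TPM in WT and 193 ± 6.97 in MKO. Casp4 followed at 0 h, at 76.6 ± 3.29 TPM in WT and 79.4 ± 5.18 in MKO, and in MKO its libraries were not all above those of Pycard (69.2 ± 6.89). In WT 0 h, P2rx7, Nek7, Nlrp3 and Naip5 followed each other with overlapping neighbours, at 48.3 ± 3.25, 46.8 ± 2.34, 39.4 ± 6.92 and 34.7 ± 1.34 TPM. Nlrc4 was last at 12.9 ± 1.12 TPM. After LPS in WT, Nlrp3 was first at 504 ± 5.93 TPM, above Casp1 at 460.3 ± 11.3 in every library, a gain of 465 TPM. In MKO 3 h it was second at 271 ± 11.7 TPM, a gain of 224, with Gsdmd next at 192 ± 13.3 TPM. The remaining order at 3 h was Casp4, Naip2, Pycard, Nek7, P2rx7, Naip5 and Nlrc4 in both genotypes, from 106 ± 2.66 down to 17.5 ± 0.561 TPM in WT and from 92.1 ± 1.81 down to 19.8 ± 1.47 TPM in MKO. In that order P2rx7 and Naip5 overlapped in WT, and Pycard and Nek7 in MKO.

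The substrates of caspase-1 were read beside the 10 genes. The level of Il1b, the gene of pro-interleukin-1 beta, in WT was 46.6, 51.5 and 41.1 CPM before LPS and 1947, 1946 and 1720.0 CPM after 3 h. The MKO libraries gave 19.3, 18.8 and 19.4 CPM at 0 h and 501, 506 and 499 CPM at 3 h. Il1b rose by 5.33 (SE 0.084) in WT and 4.71 (SE 0.084) in MKO, and its interaction was -0.62 (SE 0.11, adjusted p = 0.00169). Il18, the other substrate, was not called for LPS (0.27, adjusted p = 0.0517 in WT) and was lower in MKO by -0.59 before LPS (adjusted p = 0.000511) and by -0.85 after 3 h (adjusted p = 1.30e-05). All 6 genes of the list of inflammasome cargo and its antagonists, which also holds Il1a, Il1rn, Il18bp and Hmgb1, were lower in MKO at 0 h and at 3 h, with medians of -0.57 and -0.88. Over all genes 16.4% were lower at 0 h and 23.0% at 3 h. When scaled by library size alone, 6 were lower at 0 h and 4 at 3 h (9.59% and 9.63% of all genes). The gene lists were drawn up with earlier results of these data known.

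Among 11 other sensor genes 9 were tested. For LPS in WT 3 rose and 1 fell, where 17.8% of all genes rose and 14.6% fell. Mefv, which encodes the sensor pyrin, rose by 1.94 (SE 0.087) in WT, to 221 ± 0.945 CPM, and by 1.54 (SE 0.088) in MKO, to 103 ± 5.33 CPM. Aim2, a sensor of cytosolic DNA, rose by 0.54 (SE 0.061) in WT and was at 0.15 (adjusted p = 0.105) in MKO, with an interaction of -0.39 (adjusted p = 0.0123; -0.26 and adjusted p = 0.0708 with scaling by library size alone). Zbp1, a sensor of Z-form nucleic acids, was lower in MKO by -0.55 (SE 0.062) before LPS and by -0.72 (SE 0.062) after 3 h. Of these 9 genes 2 were higher and 3 lower in MKO at 0 h (16.5% and 16.4% of all genes). At 3 h 1 was higher and 4 lower (19.8% and 23.0% of all genes). With scaling by library size alone 3 were higher and 2 lower at 3 h (43.5% and 9.63% of all genes).

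Regulators of inflammasome assembly were tested in 16 of 17 cases. Txnip, which encodes a thioredoxin-binding protein that has been tied to NLRP3 activation, moved opposite to Nlrp3. The level in WT was 354, 341 and 326 CPM before LPS and 114, 106 and 106 CPM after 3 h. MKO libraries had 340.3, 343 and 320.0 CPM at 0 h and 237, 242 and 243 CPM at 3 h. Txnip fell by 1.65 (SE 0.055) in WT and fell by 0.47 (SE 0.053) in MKO, and the interaction was 1.17 (SE 0.076, adjusted p = 2.19e-07). Clic4, a chloride intracellular channel gene, rose by 1.09 (SE 0.059) in WT and 0.41 (SE 0.059) in MKO. In the whole list 2 rose and 2 fell with LPS in WT, 3 rose and 1 fell in MKO, 4 were higher and 2 lower in MKO at 0 h, and 6 were higher and 4 lower at 3 h. Among all genes 32.5% were called for LPS in WT, 15.8% for LPS in MKO, 32.9% at 0 h and 42.8% at 3 h. With scaling by library size alone 1 rose and 8 fell with LPS in WT, where 9.70% of all genes rose and 41.8% fell, and 10 were higher and 2 lower in MKO at 3 h, where 43.5% of all genes were higher and 9.63% lower.

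Of 13 genes for other caspases, gasdermins and membrane rupture 11 were tested. Ninj1, whose protein tears the plasma membrane late in lytic death, rose by 0.54 (SE 0.073, adjusted p = 4.40e-05) in WT and was at 0.17 (adjusted p = 0.131) in MKO, with an interaction of -0.36 (adjusted p = 0.0484; -0.23 and adjusted p = 0.141 with scaling by library size alone). It was higher in MKO at 0 h, at 194 ± 21.4 against 139.9 ± 8.82 CPM. Casp8, the apoptotic caspase that can also cut gasdermin D, was lower in MKO by -0.21 before LPS (adjusted p = 0.0486) and by -0.22 after 3 h (adjusted p = 0.0288), and with scaling by library size alone it was at -0.09 and 0.03 and not called. Gsdme, listed under its older name Dfna5, was between 10.6 and 11.4 CPM in WT 0 h and fell by 0.45 (adjusted p = 0.0160) with LPS in WT. In this list 2 rose and 2 fell with LPS in WT (17.8% and 14.6% of all genes). For LPS in MKO edgeR called 0 of 11, against 15.8% of all genes. There 1 (Ninj1) had an unadjusted p under 0.05 and DESeq2 called 0. Without the deviating 0 h libraries 2 were higher and 0 lower for LPS in MKO (12.8% and 7.92% of all genes). These were Casp8 (0.21, adjusted p = 0.00102) and Ninj1 (0.26, adjusted p = 1.97e-05). At 3 h 3 were higher and 4 lower in MKO (19.8% and 23.0% of all genes), and 6 higher and 0 lower with scaling by library size alone (43.5% and 9.63% of all genes).

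Genes that give caspases access to cytosolic LPS, or encode transcription factors known to act on the 10 genes, were tested in 10 of 11 cases. With LPS 8 rose and 0 fell in WT (0 by DESeq2 and 1 at an unadjusted p under 0.05), and 5 rose and 1 fell in MKO, where among all genes 17.8% rose and 14.6% fell in WT and 9.75% and 6.08% in MKO. Scaled by library size alone, 6 rose and 1 fell in WT (9.70% and 41.8% of all genes), the latter being Irf8 at -0.41 (adjusted p = 0.000285), which also fell in WT without the deviating 0 h libraries (-0.17, adjusted p = 0.00946). At 0 h 5 were higher in MKO, Irf1 and Nfkb1 among them, and 1 lower, Irf2 (16.5% and 16.4% of all genes). With scaling by library size alone 6 were higher and 1 lower at 0 h (25.8% and 9.59% of all genes). Without the deviating 0 h libraries 4 were higher and 3 lower (24.5% and 23.5% of all genes). At 3 h 0 were higher and 6 lower in MKO (19.8% and 23.0% of all genes), and 4 higher and 2 lower with scaling by library size alone (43.5% and 9.63% of all genes). Gbp5, which encodes a guanylate-binding protein, rose by 1.87 (SE 0.077) in WT and 0.90 (SE 0.076) in MKO, to 700.1 ± 19.8 and 349 ± 25.0 CPM. Irf1 rose by 1.76 (SE 0.059) and 0.96 (SE 0.058), Rela by 1.30 (SE 0.075) and 0.84 (SE 0.074), and Nfkb1 by 1.28 (SE 0.10) and 0.46 (SE 0.10). Irf2, whose factor is known to drive Gsdmd transcription, was lower in MKO by -0.30 before LPS (SE 0.068, adjusted p = 0.00333) and by -0.38 after it (SE 0.068, adjusted p = 0.000416; -0.13 and adjusted p = 0.082 with scaling by library size alone). The interaction was negative and called in 5 of 10 and positive in 0, also by DESeq2. At an unadjusted p under 0.05 it was negative in 6 and positive in 0. Scaled by library size alone it was negative and called in 3 of 10 (3.07% of all genes, against 4.41% with TMM scaling), without Gbp7 (-0.16, adjusted p = 0.214) and Rela (-0.33, adjusted p = 0.0863).

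**Figure D4:**
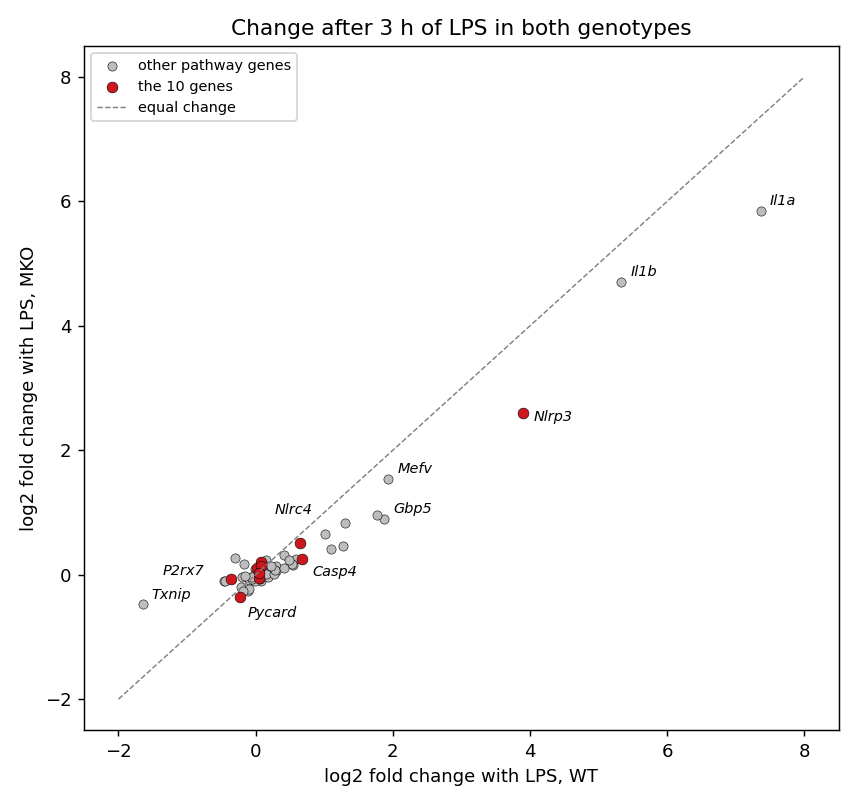
Log2 fold change after 3 h of LPS in WT (x axis) and in MKO (y axis) for the 10 genes (red) and the other pathway genes tested (grey), with a dashed line of equal change. Nlrp3 lies below the line at 3.89 and 2.59, as do Il1a and Il1b, and Txnip lies above it.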

How the data were processed

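The 12 libraries come from total RNA of peritoneal macrophages, extracted in TRIzol, per the labels' protocols. The submitters' processing notes name fastp, a read trimmer, and mm10. No source used here states the aligner, counter, annotation or strand setting, so overlapping genes on opposite strands may share reads. The authors deposited raw total counts for each gene and, beside them, TPM, both named in the table, per the file headers. TPM was the count over a length fixed per gene, rescaled per library, and served for levels between genes.

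edgeR 4.0.16 (R 4.3.3, with limma 3.58.1) fitted all libraries together with TMM scaling and filterByExpr, 1 mean for each group, and its quasi-likelihood test covered 12455 of the 19195 genes that had a count, with Benjamini-Hochberg adjustment over them. The fit was tested on simulated data. Depth was 14762709 to 20778862 counts. Promoter windows come from RefSeq (GRCm38.p6) and transcripts from GENCODE M21. The 10 genes and all lists were chosen with earlier results of these data known. Named were the 10 genes, per list the 4 with the smallest p, fewer where space asked, and 9 set by name.

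Results were recomputed with DESeq2 1.42.0, with RLE factors or library size only, without a filter, at a mean of 5 CPM, with a 2-fold minimum, with the replicate number as a block, on the compared groups alone and without each library. Added after seeing the data were a fit lacking the deviating 0 h libraries and one with replicates 1 and 2 summed. Those were the closest pair of every group (chi-square per degree of freedom 1.93 to 2.68), and no pair agreed within sampling noise.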

Additional observations from a re-analysis of the deposited data

Results flagged for a closer look

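By the test of the interaction itself in edgeR (adjusted over all genes), the change with LPS differed between WT and MKO for 2 of the 10 genes. It also differed for 13 genes of the pathway lists, which hold 9, 16, 11, 6 and 10 tested genes. Over all genes 6.80% were called, 2.39% positive and 4.41% negative. Negative values, a smaller rise in MKO, were -1.30 for Nlrp3, -0.43 for Casp4, -1.51 for Il1a, -0.62 for Il1b, -0.36 for Il1rn, -0.97 for Gbp5, -0.30 for Gbp7, -0.81 for Irf1, -0.81 for Nfkb1, -0.46 for Rela, -0.39 for Aim2, -0.36 for Ninj1 and -0.68 for Clic4. Positive values were 1.17 for Txnip, which fell less in MKO, and 0.56 for Lrrc8a, a subunit gene of volume-regulated anion channels, which fell by 0.30 in WT (adjusted p = 0.0114) and rose by 0.26 in MKO (adjusted p = 0.0368). The rise of Lrrc8a in MKO was not called with scaling by library size alone (0.17, adjusted p = 0.144). Nor was it called without the deviating 0 h libraries (0.24, adjusted p = 0.057). Gbp7 and Lrrc8a are named for this test, after their values were seen. Scaled by library size alone, 6 of these interactions were not called: Casp4 (-0.29, adjusted p = 0.111), Il1rn (-0.22, adjusted p = 0.0585), Gbp7 (-0.16, adjusted p = 0.214), Rela (-0.33, adjusted p = 0.0863), Aim2 (-0.26, adjusted p = 0.0708) and Ninj1 (-0.23, adjusted p = 0.141).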

How the results depend on the processing

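Of 1090 values of the 10 genes under the alternatives, 972 kept their side of the threshold, 93 lost the call, 20 gained it and 5 reversed. A change of direction was counted as reversed only where a fit called the gene. The 972 therefore include uncalled values that changed direction, such as P2rx7 at 3 h with library size only. The reversed ones came with library size only: for LPS in WT Naip5 at -0.21, Casp1 at -0.18 and Gsdmd at -0.17, and at 3 h Naip2 at 0.0557 and Naip5 at 0.0722. That scaling called 8 of the 10 genes for LPS in WT, 3 at 0 h and 3 at 3 h, and 6417 genes in all for LPS in WT, 1208 higher and 5209 lower against 2219 and 1823. Its splits were 837 and 1758 for LPS in MKO (1214 and 757), 3219 and 1195 at 0 h (2055 and 2044), 5424 and 1199 at 3 h (2463 and 2863), and 829 and 382 for the interaction (298 and 549).

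With replicates 1 and 2 summed, genes called fell to 2585 and 945 for LPS in WT and MKO, 2156 and 3434 for the genotype at 0 h and 3 h and 294 for the interaction, and members to 2 for LPS in MKO, 2 at 0 h, 3 at 3 h and 1 for the interaction. A 2-fold minimum left 1062, 426, 696, 996 and 248 genes in that order, and 1, 1, 0, 1 and 1 of the 10. With only the groups compared 2 members and 1504 genes were called for LPS in MKO, and 4 members and 2698 genes for the genotype at 0 h. For the genotype at 3 h, no filter left 3 members and 5226 genes, and a mean of at least 5 CPM left 3 members and 4437 genes. Both settings change which genes are tested. Without the deviating 0 h libraries 2535 genes had an interaction, against 847. The cause was not tested. Leaving out single libraries gave 4 to 5 members for LPS in WT, 2 to 5 for LPS in MKO, 4 to 5 at 0 h, 3 to 5 at 3 h and 1 to 2 for the interaction. Genes called ran from 3340 to 4800, 1335 to 2320, 3119 to 4792, 4402 to 6070 and 603 to 1132 in the order above.

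Samples with the same replicate number did not deviate together (correlations from -0.34 to 0.08). The lowest value was that between the deviating 0 h libraries. With 3 libraries per group these correlations cannot settle whether the numbers pair samples. With a replicate block 1 member, Nlrp3, was called for the interaction, and Casp4 was not (-0.43, adjusted p = 0.0881).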

Other observations

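Some pathway genes differed between the genotypes without a call for LPS in the TMM-scaled fit. Panx1, which encodes a channel that releases ATP, was at 8.08 ± 0.875 CPM in WT and 19.2 ± 1.20 CPM in MKO before LPS, a 2.37-fold difference (adjusted p = 1.09e-06 in edgeR's test). After 3 h the levels were 7.44 ± 0.793 and 15.9 ± 0.983 CPM, a difference of 1.09 (SE 0.11, adjusted p = 2.38e-06). P2rx4, an ATP-gated channel gene of the same family as P2rx7, was lower in MKO by -0.62 before LPS (SE 0.054, adjusted p = 1.48e-06) and by -0.59 after it (SE 0.054, adjusted p = 9.99e-07). At 0 h Nlrp10 was at 5.22 ± 0.766 CPM in WT and at 8.79 ± 0.506 CPM in MKO, a difference of 0.75 (adjusted p = 0.000519), and at 0.76 (adjusted p = 0.000446) at 3 h. Casp12, a caspase gene of the same family as Casp1 and Casp4, was at 5.71 ± 0.736 and 9.39 ± 0.600 CPM at 0 h, a difference of 0.72 (adjusted p = 0.00296), and at 0.57 (adjusted p = 0.0108) at 3 h. LPS calls appeared under library size scaling for Panx1 in WT (-0.34, adjusted p = 0.0249) and MKO (-0.36, adjusted p = 0.0193), P2rx4 in WT (-0.25, adjusted p = 0.000556) and Nlrp10 in WT (-0.44, adjusted p = 0.0167). P2rx4 was also called for LPS in WT without the deviating 0 h libraries (-0.08, adjusted p = 0.0452).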
